A study of Mus musculus with 2 samples.

Results

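The miR-101 genes Mir101a and Mir101b are 2 of the 2202 microRNA genes in each count table. They were taken as the rows whose Ensembl identifier carries either symbol in GENCODE M21. That rule uses no measured value, though the genes were chosen with earlier results of these data known. The tables come from microRNA sequencing of left cerebral cortex tissue. The mice were B6CASTF1/J males, the F1 cross of C57BL/6J with CAST, and were 36 days old. RNA below 30 bases was sequenced. There are 2 libraries of 1 group, replicate 2 from the animal numbered 4 and replicate 1 from the animal numbered 3, and no treated, mutant or other control group. The labels number the animals separately but give both 1 donor identifier, and they were taken as separate animals. With 1 library set against 1 library, p-values speak of counting error alone. The data can show how much of each gene was counted and how far the libraries differ.

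A microRNA gene is transcribed into a precursor that folds into a hairpin, and Dicer cuts the hairpin into a 5p and a 3p arm. The arm held by an Argonaute protein pairs with messenger RNAs mainly through its seed, bases 2 to 8 from the 5′ end, and lowers their output. The 3p arm is the better known product of the miR-101 hairpins. It is known for repressing Ezh2, the catalytic subunit of the Polycomb complex that methylates histone H3, and the amyloid precursor App and the ataxin Atxn1 are other reported targets. In developing mouse hippocampus miR-101 is known to limit the excitability of the network.

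The mature sequences are shown because both genes are named as 1 family and their annotated seeds can be compared directly. They are RefSeq's, on GRCm38.p6 (the mm10 assembly of the tables), with the seed in capitals.
mmu-miR-101a-3p: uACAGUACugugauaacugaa
mmu-miR-101b-3p: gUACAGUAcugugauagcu
mmu-miR-101c: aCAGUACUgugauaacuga
mmu-miR-144-3p: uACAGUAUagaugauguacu
mmu-miR-582-5p: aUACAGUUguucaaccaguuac
As annotated, the miR-101b 3p arm starts 1 base before the miR-101a 3p arm, and the Mir101c product starts 1 base after it. The 3 annotated seeds are therefore different windows on the same run of bases, and no other of the 1738 mature sequences in the RefSeq table has the same bases 2 to 8 as any of them. Over bases 2 to 7 the miR-101a 3p arm matches miR-144-3p, and the miR-101b 3p arm matches miR-582-5p. Where the 5′ ends of the sequenced molecules lay cannot be read from counts per gene. With positions counted from 1 at the 5′ end of miR-101a-3p, the Mir101b hairpin differs from that arm by 1 substitution over its length, A16G.

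The 5p arms differ more, at 17 of 23 aligned positions identical, and their seeds differ as well.
mmu-miR-101a-5p: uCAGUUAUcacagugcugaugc
mmu-miR-101b-5p: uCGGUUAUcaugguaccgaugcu
No other mature sequence in the table shares bases 2 to 7 with either 5p arm.

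The hairpins, with both arms in capitals, show where a read can tell the genes apart.
Mir101a: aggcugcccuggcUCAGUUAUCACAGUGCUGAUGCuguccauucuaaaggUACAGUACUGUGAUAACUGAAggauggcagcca
Mir101b: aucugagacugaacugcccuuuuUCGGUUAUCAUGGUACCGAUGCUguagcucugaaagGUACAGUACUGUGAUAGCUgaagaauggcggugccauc
The Mir101a hairpin has 83 bases and the Mir101b hairpin 97, and they are identical at 69.4% of aligned positions (68 of 98). Their GC content is 49.4% and 47.4%, against a median of 50.8% over all 2202 hairpins. Their longest shared stretch is aaagguacaguacugugaua, 20 bases that begin before the 3p arm and stop just short of its substitution. Among the other 2201 microRNA genes no hairpin shares a longer stretch with either gene, on either strand. Next for Mir101a came Mir101c, with 19 bases, which are the whole annotated Mir101c product. For Mir101b it was also Mir101c, with 14 bases. In the GENCODE M21 transcripts the full Mir101a arms occur in Mir101a and its host transcript, and the full Mir101b arms in Mir101b alone. The rest of the genome was not searched.

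**Figure D1:**
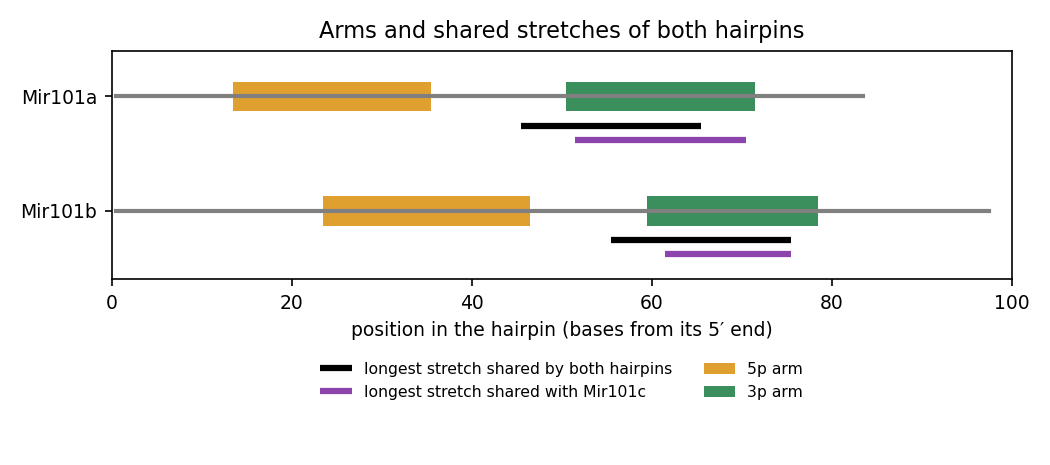
Position of the annotated 5p and 3p arms along the Mir101a and Mir101b hairpins (bases from the 5′ end), with lines for the longest stretch shared by both hairpins and for the longest stretch shared with Mir101c. The stretch shared by both covers positions 46 to 65 of Mir101a and 56 to 75 of Mir101b, and in each it lies over the 3p arm and leaves the 5p arm free.

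The genes stand alone on different chromosomes. Mir101a (ENSMUSG00000065451.1) lies on the minus strand at chr4:101346945-101347027 (mm10), in an exon of the long non-coding RNA gene E130102H24Rik on the same strand. Its nearest protein-coding gene is Ak4, an adenylate kinase, 72250 bases away. Mir101b (ENSMUSG00000065556.1) lies on the plus strand at chr19:29135279-29135375, in an intron of Rcl1 on the same strand. Rcl1 encodes a protein of ribosomal RNA processing. No other microRNA gene lies within 10 kb of either, so neither is part of a cluster. The nearest are Gm23366 on chromosome 4 and Gm24108 on chromosome 19, each over 1 Mb away and each with 0 counts in both libraries.

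Both miR-101 genes were counted in both libraries, at modest levels, and Mir101b stood above Mir101a each time. Levels are CPM, the reads counted on the gene's own strand per 1000000 such reads at microRNA genes, with exact 95% binomial (Clopper-Pearson) intervals that cover counting error only. The libraries held 4010274 own-strand counts in replicate 2, against 4273791 in replicate 1. Mir101a had 210 counts in replicate 2, against 765 in replicate 1. In CPM that is 52.4 (interval 45.5 to 59.9) in replicate 2, against 179 (167 to 192) in replicate 1, with a mean of 116 ± 89.5 (SD, n = 2). It was low in replicate 2 and high in replicate 1, and the intervals do not overlap.

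Mir101b had 701 counts in replicate 2, against 1658 in replicate 1. Its level was 175 CPM (162 to 188) in replicate 2, against 388 CPM (369 to 407) in replicate 1, with a mean of 281 ± 151 CPM (SD, n = 2). It too was the lower in replicate 2. Within each library the intervals of the genes do not overlap, but the lower Mir101b level and the higher Mir101a level, from different libraries, do. The spreads over libraries overlap as well, so the order of the genes rests on the within-library comparison.

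Ranked among genes with a count, Mir101a was 229 of 688 in replicate 2, against 177 of 730 in replicate 1. Mir101b was 172 of 688 in replicate 2, against 142 of 730 in replicate 1. By mean level Mir101a was 195 and Mir101b 155 of 782. Together they took 0.0227% of the own-strand counts in replicate 2 (911 counts), against 0.0567% in replicate 1 (2423 counts). Both are thus in the upper part of the detected genes and far from the most abundant ones. Multi-mapped reads, 39.9% of all reads in replicate 2, against 42.8% in replicate 1, enter no gene's count. How many of them came from miR-101 was not tested, so these are levels of assigned reads.

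Neither gene had a count on the opposite strand in either library, which allows up to 0.748 CPM there in replicate 2, against 0.702 CPM in replicate 1 (3 counts). The unstranded column holds the same counts as the own-strand column for both genes. No other microRNA gene lies within 10 kb of either, so none could take reads from them in that column. The counts join both arms, so 3p and 5p reads cannot be told apart.

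**Figure D2:**
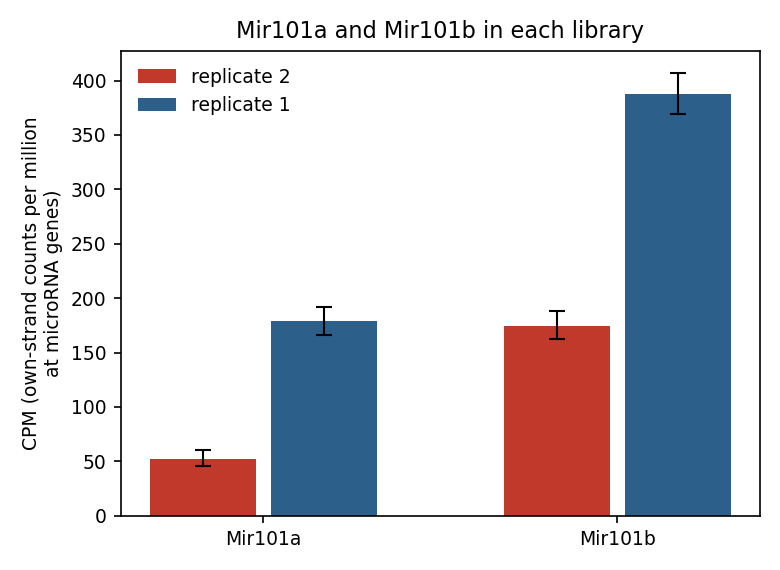
CPM (vertical axis, linear from 0) of Mir101a and Mir101b, with a bar for each library, replicate 2 left of replicate 1, and exact 95% binomial intervals. Mir101a stands at 52.4 CPM in replicate 2, against 179 CPM in replicate 1, and Mir101b at 175 CPM in replicate 2, against 388 CPM in replicate 1.

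Both miR-101 genes were lower in replicate 2 than in replicate 1. The log2 ratio of replicate 2 over replicate 1, scaled by TMM effective library sizes, was -1.73 for Mir101a (exact 95% interval -1.96 to -1.51), and the adjusted p was 2.46e-63 in an exact two-sided binomial test. For Mir101b it was -1.11 (-1.24 to -0.98), with an adjusted p of 5.97e-70 in the same test. Adjustment was by Benjamini-Hochberg over all 516 genes with 10 or more counts together. The TMM-scaled ratio was thus 0.301 for Mir101a and 0.463 for Mir101b, and the ratio of the CPM values was 0.293 and 0.451 for the same genes. The test compares these libraries and no conditions. By it 57.9% of all genes tested passed, 30.4% lower and 27.5% higher in replicate 2. Both members are among the genes called lower.

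In size, the miR-101 ratios lay further out. Among the 309 genes with 100 or more counts together, the median log2 ratio was -0.04 and the median absolute log2 ratio 0.46. Of these, 12 genes (3.88%), Mir101a included, had a log2 ratio at or below that of Mir101a. For Mir101b there were 29 such genes (9.39%), itself included. In either direction, 6.15% of the 309 genes had a ratio at least as large as that of Mir101a and 14.2% as large as that of Mir101b. The coefficient of variation between the libraries over all 516 genes was 43.7%, from edgeR's common dispersion on 1 residual degree of freedom. The intervals of the miR-101 ratios cover counting error and leave that spread out.

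**Figure D3:**
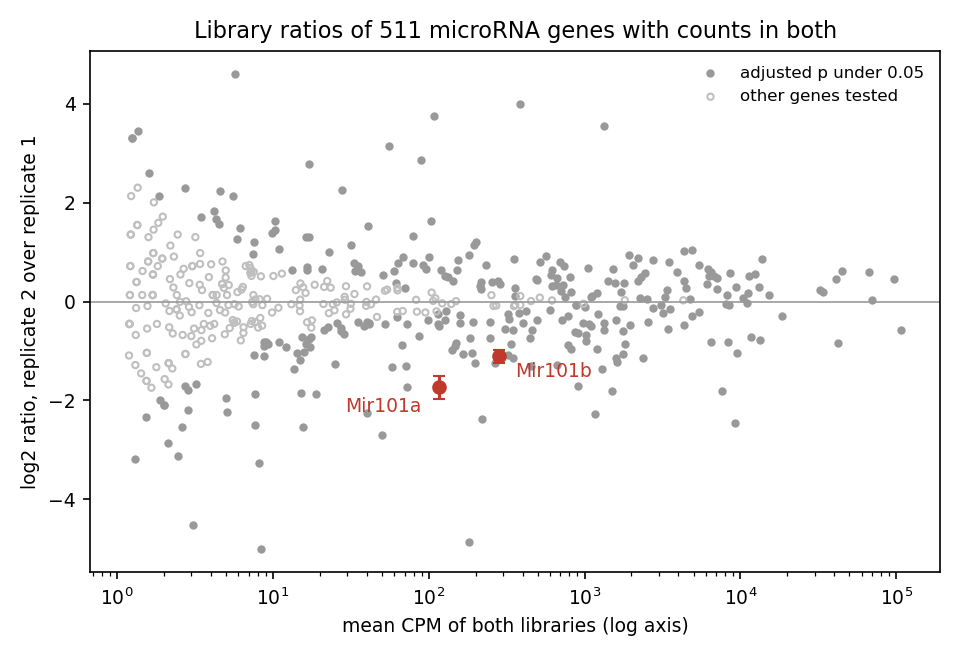
Log2 ratio of replicate 2 over replicate 1 (vertical axis) against mean CPM (horizontal log axis) for the 511 genes tested that had counts in both libraries, with both miR-101 genes in red and their exact 95% intervals. Mir101a, at -1.73, and Mir101b, at -1.11, have 12 and 29 of the 309 genes with 100 or more counts at or below them, each counted with itself.

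The genes did not keep their proportion. Mir101a made up 23.1% of the reads of the pair in replicate 2 (exact 95% interval 20.4 to 25.9), against 31.6% in replicate 1 (29.7 to 33.5), a mean of 27.3% ± 6.03 (SD, n = 2). The odds of a miR-101 read being Mir101a were 0.649 times as high in replicate 2 as in replicate 1 (0.541 to 0.777), and a two-sided Fisher exact test on the 4 counts gave p = 1.09e-06. That p-value covers counting error alone. This was the 1 relation of its kind computed, so how often other pairs of genes shift as much is not known. Depth and scaling cancel in this relation. Loss of multi-mapped reads need not cancel, because Mir101a shares up to 19 bases with Mir101c and Mir101b up to 14. What such loss does to the share, or to the order of the genes, was not tested. Mir101b had 3.34 times the Mir101a counts in replicate 2, against 2.17 times in replicate 1. Per base of hairpin these ratios were 2.86 in replicate 2, against 1.85 in replicate 1. Mir101b was higher in 2 of 2 libraries. The shift of the share compares 1 library with 1 library, and how the share varies between animals is not known from it.

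Genes with a profile like either member were named by the Euclidean distance of log2(CPM + 1) over the 2 libraries, the 3 nearest each. Nearest to Mir101b was Mir129-1 at a distance of 0.17, with 155 CPM in replicate 2, against 380 CPM in replicate 1. Mir702 (203 CPM in replicate 2, against 441 CPM in replicate 1) and Mir125b-2 (182 CPM in replicate 2, against 313 CPM in replicate 1) followed at 0.29 and 0.31. Mir101a had no neighbour as close. The nearest were Mir410 at 0.79, with 64.6 CPM in replicate 2, against 107 CPM in replicate 1, and Mir27a at 0.83, with 93.3 CPM in replicate 2, against 190.2 CPM in replicate 1. Mir16-2 stood at 0.87, with 40.4 CPM in replicate 2, against 103 CPM in replicate 1. A likeness over 2 libraries is a description of level and ratio.

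Mir101c and genes matching a miR-101 3p arm over bases 2 to 7 were also looked at. Mir101c, on chromosome 9, whose annotated seed is shifted by 1 base, had 0 counts in both libraries. Its annotated product lies wholly within the miR-101a 3p arm, so a read that fits both loci would be multi-mapped and left out of both counts. Mir144, whose microRNA accumulates in maturing red cells, had 183 counts in replicate 2, against 42 in replicate 1, or 45.6 CPM in replicate 2, against 9.83 CPM in replicate 1. It was higher in replicate 2, with a log2 ratio of 2.26 (1.76 to 2.78) and adjusted p = 1.32e-24 (exact binomial test), the opposite direction to both miR-101 genes. Mir582, found by its match to the miR-101b 3p arm after values had been seen, had 36 counts in replicate 2, against 90 in replicate 1. Its log2 ratio was -1.19 (-1.79 to -0.62), with an adjusted p of 3.87e-05 in that test.

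Other microRNAs reported to repress the same targets as miR-101 were counted from 3 lists. The median log2 ratio over all genes tested was -0.04. Of 7 microRNA genes reported against Ezh2, all were tested, 3 were higher in replicate 2, 1 was lower and 3 did not pass, with a median log2 ratio of 0.02. Those higher were Mir138-1 (0.52), Mir138-2 (0.24) and Mir98 (0.41), and the gene lower was Mir26a-2 at -4.87, on 47 counts in replicate 2, against 1504 in replicate 1. Mir26b, at 4277 CPM in replicate 2, against 4324 CPM in replicate 1, had a log2 ratio of 0.02 (-0.01 to 0.05). The list summed to 20213 CPM in replicate 2, against 16952 CPM in replicate 1. The miR-101 pair summed to 227 CPM in replicate 2, against 567 CPM in replicate 1. Much of the list's sum is Mir138-1 (7354 CPM in replicate 2) and Mir138-2 (3610 CPM), which make the same mature microRNA. The counts join both arms and leave out multi-mapped reads. These sums therefore do not compare amounts of the arms that are reported to repress Ezh2.

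Of 8 microRNA genes reported against App, 3 were higher in replicate 2, 4 were lower and 1 did not pass, with a median log2 ratio of 0.04. Mir195a, at -1.70 (-1.78 to -1.62), and Mir16-2, at -1.31 (-1.58 to -1.05), were lower by amounts like those of the miR-101 genes. Mir16-1 (-0.36) and Mir106b (-0.24) were lower by less. Mir153, a neuronal microRNA, was higher at 0.83 (0.67 to 1.00), as were Mir17 (0.48) and Mir20a (0.31). Mir106a, on 35 counts in replicate 2, against 23 in replicate 1, did not pass (0.74, -0.06 to 1.56). The App list summed to 2288 CPM in replicate 2, against 3160 CPM in replicate 1.

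Of 4 microRNA genes reported against Atxn1, only Mir130a had counts in these tables. It stood at 1591 CPM in replicate 2, against 1233 CPM in replicate 1 and was higher in replicate 2, at a log2 ratio of 0.41 (0.35 to 0.46). Mir19a, Mir19b-1 and Mir19b-2 had 0 counts in both libraries. The Mir26a, Mir138, Mir16 and Mir19b genes of these lists each make the same mature microRNA from several loci, as do Mir129-1 and Mir125b-2 above with their partners. Reads matching more than 1 locus go uncounted, so the levels of these genes are uncertain. The target lists thus held genes of both directions, and the counts called are to be read beside the 27.5% higher and 30.4% lower among all genes.

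**Figure D4:**
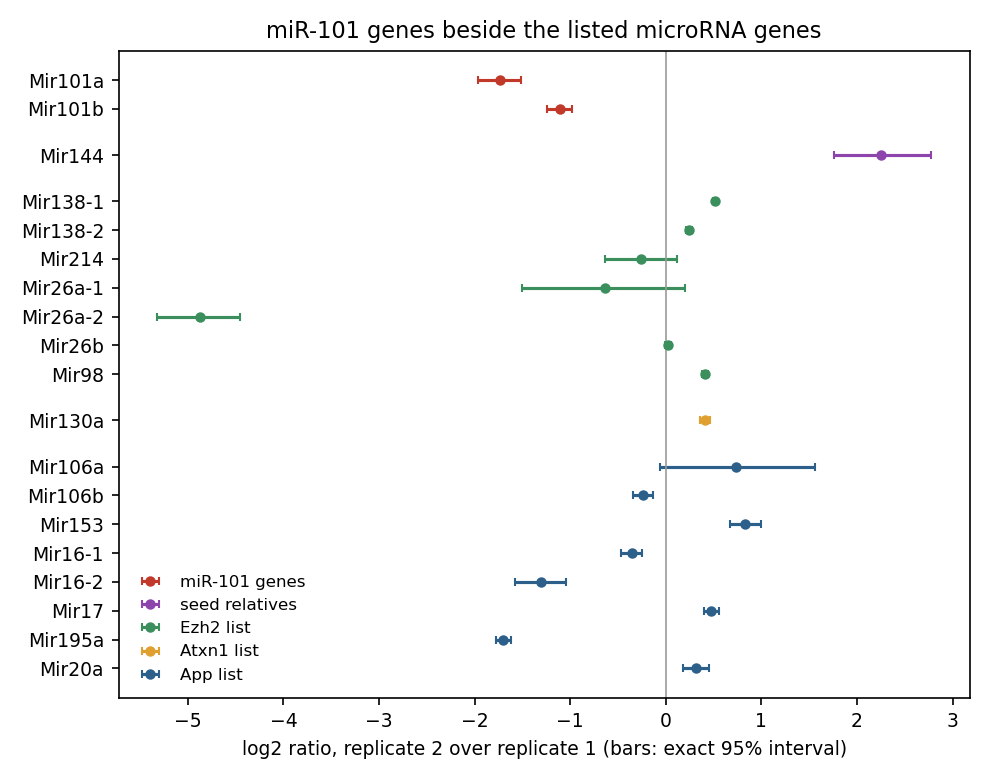
Log2 ratio of replicate 2 over replicate 1 (horizontal axis), with exact 95% intervals. Shown are the miR-101 genes, Mir144 (labelled seed relatives) and the genes of the Ezh2, Atxn1 and App lists with counts enough to test. Mir144 matches the miR-101a 3p arm over bases 2 to 7 only. Mir582, which matches the miR-101b 3p arm over those bases, is not drawn and had a log2 ratio of -1.19. Mir101a and Mir101b lie left of 0, Mir144 lies right of it at 2.26, and Mir26a-2 is furthest left at -4.87.

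Marker microRNAs of cell types in cortex and of other tissues were summed in 9 lists. Each list had counts in both libraries, though some listed genes had none. The neuron list, with 12 of 13 genes counted and Mir124a-2 at 0, summed to 60339 CPM in replicate 2, against 91114 CPM in replicate 1. Some of its genes had few counts: Mir124a-1 15 in replicate 2, against 10 in replicate 1, Mir124a-3 4 against 20, and Mir9-2 6 against 7. The Mir124a, Mir128, Mir138 and Mir9 genes are each listed at several loci. Reads matching more than 1 locus go uncounted, so their levels are uncertain too. Of the 12 neuron genes tested, 3 were higher and 6 lower in replicate 2. The counts called in these lists are to be read beside the 27.5% higher and 30.4% lower among all 516 genes tested. The oligodendrocyte list summed to 3543 CPM in replicate 2, against 5098 CPM in replicate 1, with 2 of 3 genes lower. The red-cell list, with 3 of 3 genes in the tables counted, summed to 794 CPM in replicate 2, against 83.5 CPM in replicate 1, with 2 of 3 genes higher. The endothelial list gave 10799 CPM in replicate 2, against 11394 CPM in replicate 1. The striated muscle list summed to 18.5 CPM in replicate 2, against 27.8 CPM in replicate 1, with Mir1a-1 and Mir133a-2 at 0 and its 1 gene tested, Mir206, lower. The choroid plexus list gave 391 CPM in replicate 2, against 458 CPM in replicate 1, and the microglia and leukocyte list 2065 CPM in replicate 2, against 2228 CPM in replicate 1. The mural list gave 7691 CPM in replicate 2, against 5178 CPM in replicate 1, and the liver list 79.8 CPM in replicate 2, against 47.5 CPM in replicate 1. The sums of 6 of the 9 lists were thus lower in replicate 2, and those of the red-cell, mural and liver lists higher. Some sums join genes of both directions. In the mural list the log2 ratio was 0.65 for Mir143 and -0.42 for Mir145a. In the microglia and leukocyte list Mir146 (0.19) and Mir155 (0.27) were higher. Mir150 (-0.25) and Mir223 (-5.00, on 2 counts in replicate 2) were lower. The endothelial sum rests on Mir126a, at -0.04, and the liver sum on Mir122 alone. Without Mir132, Mir128-1 and Mir128-2, left out after values had been seen, the other 10 neuron genes summed to 22768 CPM in replicate 2, against 19892 CPM in replicate 1, so the direction of the neuron sum rests on those genes. The part of these cell types in the miR-101 ratios was not tested. In bulk tissue, fewer cells of a type and less microRNA per cell cannot be told apart.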

How the data were processed

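The deposited tables hold whole-number read counts per microRNA gene, 1 table per library, not normalized. The build was mm10 and the annotation GENCODE M21, per the deposited text files. Which aligner, counter and trimming were used is not given in the sources used here. Without a header, the table layout was read as unstranded, own-strand and opposite-strand counts. Own-strand counts were used. Entries that name no gene held 65.2% of reads in replicate 2 and 64.0% in replicate 1 and stayed out of the main totals and tests. They entered only the total of all reads, tried as another scaling.

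All 2202 identifiers matched GENCODE M21. TMM effective sizes and the dispersion came from edgeR 4.0.16 (R 4.3.3), over genes with 10 or more counts together. As 1 group offers no contrast for a count model, the exact binomial test was used in its place. Tried beside these were total counts, DESeq2 1.42.0 size factors, all reads, unstranded counts, minimum counts of 1 and 100, and a pseudocount of 0.5. Named were the members, list genes, the 3 nearest profiles and neighbouring genes. The members and lists were chosen with earlier results of these data known. Sequences are RefSeq's (GRCm38.p6). Alignment used Biopython 1.88, statistics SciPy 1.17.1. Scripts were tested on simulated data with counting error alone, which lack the spread between libraries seen here.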

Additional observations from a re-analysis of the deposited data

Results flagged for a closer look

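The share of multi-mapped reads was 39.9% in replicate 2, against 42.8% in replicate 1. They are given here because they enter no gene's count. They enter only the total of all reads, which was tried as another scaling. Their genes are not given in the tables.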

How the results depend on the processing

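Both miR-101 genes stayed lower in replicate 2, past the threshold, in all 8 fits (3 scalings beside TMM, unstranded counts, 2 other minimum counts and, chosen after seeing the data, TMM over all genes with a count). These fits could change little. A minimum count leaves a member's ratio as it is, and the members' unstranded counts equal their own-strand counts. A scaling moves the ratios of all genes by the same amount. The log2 ratio ran from -1.82 to -1.70 for Mir101a, with adjusted p from 2.49e-70 to 1.19e-60 in the exact binomial test. For Mir101b it ran from -1.20 to -1.07, with adjusted p from 7.60e-82 to 1.75e-65. Over the genes tested in each fit, 121 to 150 were called higher and 132 to 177 lower. The number tested was 309 with 100 or more counts together, 491 with unstranded counts, 782 with 1 or more counts and 516 in the other fits. The share called therefore differs between fits. Scaled to 1000000 of all reads in the library, a larger total, the mean level was 41.3 for Mir101a and 100.1 for Mir101b. With 1 library left out, the Mir101a level was 52.4 CPM (without replicate 1) or 179 CPM (without replicate 2), the Mir101b level 175 CPM (replicate 2 alone) or 388 CPM (replicate 1 alone), and the Mir101a share 23.1% or 31.6% likewise. The 3 nearest genes of each member were shared under a pseudocount of 0.5, and the counts called in the lists did not move by over 1.5 times with DESeq2 size factors or total counts. The log2 ratio of the summed neuron markers was -0.59 in full and 0.19 without Mir132, Mir128-1 and Mir128-2, a choice made after seeing the data. No paired analysis was possible because the libraries form 1 group. At these depths, 210 counts are the least that a member's level rests on, and how much animals vary is not known from 1 pair of libraries.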
